A study of Mus musculus with 229 samples.

Results

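Cycling cells of the neonatal mouse cortex were examined in a single Drop-seq library of PDGFRa-GFP cells taken at P1-3. A cell was selected on 8 genes of the late cell cycle: it had to have at least 1 UMI (unique molecular identifier, a captured RNA molecule counted once) of at least 3 of Top2a, Mki67, Cenpf, Cenpa, Ube2c, Birc5, Ccnb1 and Cdk1. This rule chose 745 of 3184 cells, or 23.4% (exact 95% interval 21.9 to 24.9). The other 2439 cells served as the comparison. Among the 745 cycling cells, 398 carried only genes of the interneuron lineage, 165 only genes of the oligodendrocyte lineage, 110 both and 72 neither.

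A dividing cell copies its DNA in S phase and separates the copies in mitosis (M phase), with the gap phases G1 and G2 between them. D-type cyclins act in G1, the Mcm helicase and the enzymes of nucleotide supply in S phase, and the spindle and kinetochore proteins in mitosis. Oligodendrocyte precursor cells (OPCs), marked by Olig1 and the growth factor receptor Pdgfra, keep dividing as they spread through the cortex before they make myelin. Progenitors of GABA-producing interneurons, marked by Dlx factors and the GABA-synthesizing enzymes Gad1 and Gad2, divide in the ventral forebrain and around the ventricle.

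The cells came from the cerebral cortex of pups labelled PDGFRa normal and PDGFRa-gfp, aged P1 to P3, with no further allele or agent named. GFP in this strain follows the Pdgfra promoter, and live GFP-positive cells without the dead-cell dye 7-AAD were sorted. Pups were not counted or told apart in the labels, so the library may pool animals. A pair of further Drop-seq libraries were used for side-by-side values, GFP-sorted cortex cells of hGFAP-GFP mice (GFP under the human GFAP promoter) at P5-6 and an unsorted tumour labelled GBM at dpi 25. C1-captured single cells of PDGFRa-GFP at P3 and P6 and of hGFAP-GFP at P3 and at P4 to P6, and a pooled list of open chromatin (ATAC-seq) of E14.5 and P5 PDGFRa-GFP cells were used as well. A 10x tumour library at dpi 35 was not analysed here.

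The PDGFRa-GFP library held 8166699 UMIs, from 617 to 18886 per cell with a median of 2013.5. The number of cells in the table equals the labelled number for this library, while the hGFAP-GFP and tumour tables hold 815 and 4955 cells against 2000 and 6796 in the labels. The 3 libraries shared 0 cell barcodes. Each group is a single library, so no test was made. Every interval is an exact 95% interval for counting alone, and differences between animals were not measured. Levels are CPM, the summed UMIs of a gene over all UMIs of the group times 1e6, and ratios are log2 ratios of CPM. A gene was read in a comparison from 100 summed UMIs, and called where its level differed by at least 2-fold. Cycling cells were deeper than the others, with a median of 3523 against 1766 UMIs and 1693 against 1058 genes per cell, and a depth difference can move shares of cells with a UMI. Cells under 1000 UMIs numbered 59 among the cycling cells and 441 among the others. The mitochondrial share was 2.44% and 3.11%.

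The rule genes themselves act around mitosis, and their values describe the choice of the cells. Top2a, the enzyme that untangles DNA, was found in 90.3% of the cycling cells at 1917 CPM, against 10.9% and 91.3 CPM in the others. Mki67, which coats mitotic chromosomes, was found in 81.7% against 5.04%, with 813 against 32.6 CPM. Cenpf, a kinetochore protein, was found in 79.5% against 6.40%, and Cenpa, the histone of the centromere, in 65.8% against 5.00%. Ube2c, which works with the ubiquitin ligase that ends mitosis, had 822 against 20.4 CPM, and Birc5, a subunit of the chromosomal passenger complex, 523 against 18.5 CPM. Ccnb1 and Cdk1, the cyclin and kinase that drive entry into mitosis, were the least often found, in 48.5% and 59.5% of cycling cells. The marker genes of the label (Top2a, Mki67, Cenpf and Ube2c) are thus rule genes, and they cannot check it.

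The promoters of these genes are shown because many genes of the late cell cycle share short promoter motifs, and the cycling cells were chosen by such genes. Windows of 300 bases, from 250 before to 50 after the RefSeq start on GRCm38.p6, are printed 5′ to 3′ on the strand of the gene. The motifs searched on both strands were the cell cycle genes homology region (CHR, TTTGAA or TTCGAA), the CCAAT box (CCAAT) and E2F-type sites (with the letters TTCCCGC, with TTGGCGC, with TTCGCGC or with TTGCCGC). Capitals mark every match in Top2a, Ube2c and Cdk1, and the E2F-type matches alone in the replication genes Mcm3 and Mcm6. Adjacent or overlapping matches run together. These 5 genes were picked after their motif counts were seen.
Top2a (chr11:99024140-99024439, minus strand): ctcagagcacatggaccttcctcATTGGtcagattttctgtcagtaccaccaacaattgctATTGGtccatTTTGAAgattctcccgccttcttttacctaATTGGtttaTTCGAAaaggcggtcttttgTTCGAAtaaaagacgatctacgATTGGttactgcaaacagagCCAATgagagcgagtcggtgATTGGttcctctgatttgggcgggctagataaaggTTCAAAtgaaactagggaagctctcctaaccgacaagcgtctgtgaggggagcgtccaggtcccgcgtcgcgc
Ube2c (chr2:164769679-164769978, plus strand): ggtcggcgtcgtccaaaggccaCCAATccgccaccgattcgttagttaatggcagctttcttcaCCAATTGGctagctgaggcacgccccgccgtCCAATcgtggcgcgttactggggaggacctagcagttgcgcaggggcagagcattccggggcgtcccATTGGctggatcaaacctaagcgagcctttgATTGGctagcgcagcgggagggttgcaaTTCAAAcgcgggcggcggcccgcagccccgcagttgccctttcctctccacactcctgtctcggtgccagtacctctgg
Cdk1 (chr10:69352863-69353162, minus strand): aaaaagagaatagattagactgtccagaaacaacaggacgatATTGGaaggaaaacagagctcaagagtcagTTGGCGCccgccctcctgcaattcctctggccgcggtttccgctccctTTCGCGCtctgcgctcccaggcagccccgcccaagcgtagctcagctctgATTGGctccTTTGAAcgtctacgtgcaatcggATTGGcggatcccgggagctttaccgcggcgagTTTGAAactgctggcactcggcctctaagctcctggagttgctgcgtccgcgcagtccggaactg
Mcm3 (chr1:20820263-20820562, minus strand): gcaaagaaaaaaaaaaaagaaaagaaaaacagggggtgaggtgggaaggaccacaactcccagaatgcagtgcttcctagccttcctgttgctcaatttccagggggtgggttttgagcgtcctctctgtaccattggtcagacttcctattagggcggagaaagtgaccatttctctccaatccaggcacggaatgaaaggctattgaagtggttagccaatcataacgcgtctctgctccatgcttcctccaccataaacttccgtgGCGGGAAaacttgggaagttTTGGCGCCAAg
Mcm6 (chr1:128359656-128359955, minus strand): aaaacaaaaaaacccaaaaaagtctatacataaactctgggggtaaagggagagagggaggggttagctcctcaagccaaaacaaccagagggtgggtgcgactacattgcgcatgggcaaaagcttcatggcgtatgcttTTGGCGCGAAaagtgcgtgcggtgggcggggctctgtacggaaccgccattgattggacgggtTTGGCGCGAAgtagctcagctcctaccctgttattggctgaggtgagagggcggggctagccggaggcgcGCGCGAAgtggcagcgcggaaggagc
The Top2a window holds 4 CHR and 6 CCAAT matches and no E2F-type match, and that of Ube2c 1 CHR and 6 CCAAT matches. Cdk1 holds 2 CHR, 3 CCAAT and 2 E2F-type matches. Mcm3 and Mcm6 hold 3 and 5 E2F-type matches and no CHR match.

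A CHR match was present in 6 of the 8 rule genes (75.0%), all but Birc5 and Ccnb1, and in 21.7% of 27025 genes with such a window. Among genes that the rule did not use, 34 of 42 G2/M genes (genes of G2 phase and mitosis) with a window had one (81.0%), and 17 of 18 spindle genes (94.4%). Here and in later comparisons the lists overlap. Most spindle genes and some kinetochore genes are also in the G2/M list. The S-phase list shares Mcm genes with the licensing list and Rrm2 with the nucleotide supply list. Counts of these lists are thus not separate from each other. In the S-phase list 7 of 32 genes had one (21.9%), close to the share of all genes. In the licensing list 4 of 12 had one, among interneuron genes outside the lineage rule 4 of 12, in the neuron list 2 of 8 and in the OPC list 1 of 15. E2F-type matches were arranged the other way round, in 24 of 32 S-phase genes (75.0%), 8 of 42 G2/M genes (19%) and 10.9% of all genes. CHR and CCAAT occurred together in 64.3% of the G2/M genes and in 8.61% of all genes. Windows of all 8 rule genes, 41 of the 42 G2/M genes and all 32 S-phase genes overlapped a peak of the authors' pooled ATAC list by at least 1 base. So did those of 13 of 15 OPC genes, 10 of 12 interneuron genes outside the lineage rule and all 8 neuron genes. Among all genes with a window the share was 44.5%, so such overlap was not particular to the cell cycle lists. That chromatin came from whole PDGFRa-GFP populations at other ages, in which cycling cells were not set apart. A match is a stretch of letters and not a measured binding site.

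**Figure D1:**
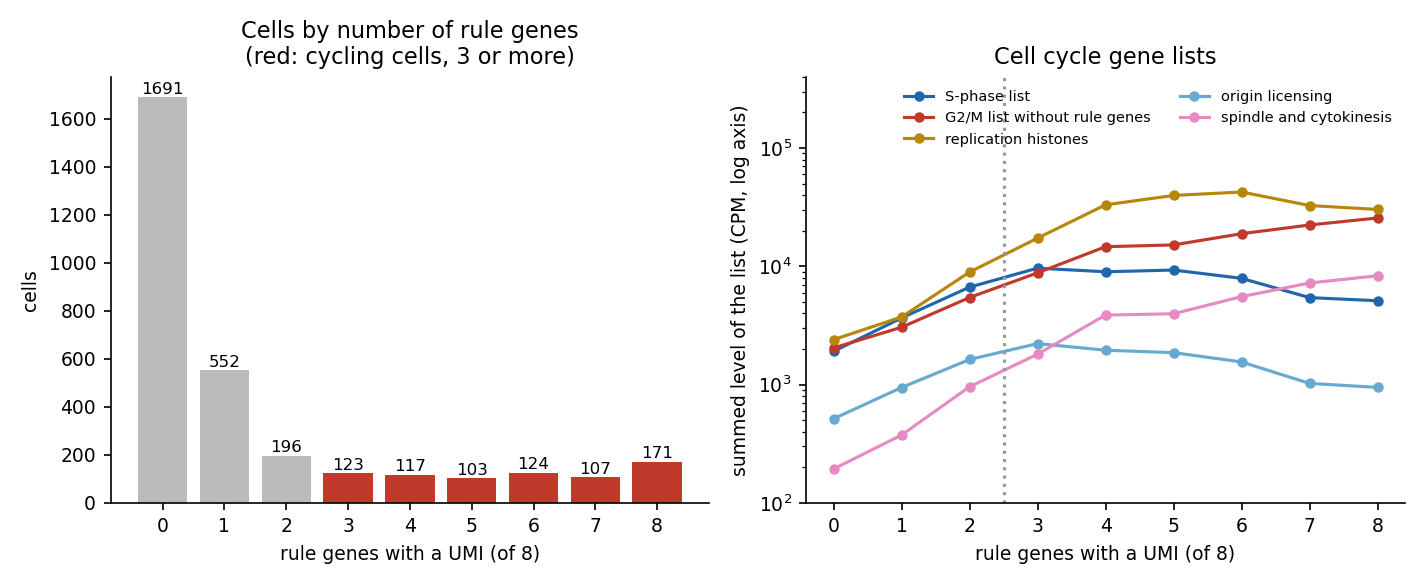
Left, number of cells (bars) by how many of the 8 rule genes had a UMI; the 745 cycling cells have 3 or more. Right, summed level of cell cycle gene lists (CPM, log axis) in the cells of each count: the G2/M and spindle lists are highest at 8 genes, S-phase and licensing genes at 3.

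Cells were found at every count of rule genes, and the part of sequencing depth in this spread was not tested. Counts from 0 to 8 rule genes were held by 1691, 552, 196, 123, 117, 103, 124, 107 and 171 cells. The 123 cells just inside the threshold had a median of 5 UMIs of the rule genes, the 196 just outside it 2.5, and cells with all 8 genes 51. Top2a was found in 76.4% of the cells with 3 rule genes and in 52% of those with 2, and Mki67 in 57.7% and 37.8%. Genes outside the rule varied along the same axis, as the plot of lists by rule-gene count shows. Summed over 51 other G2/M genes the level was 2039 CPM at 0 rule genes, 5447 at 2, 8802 at 3 and 25628 at 8. Spindle and cytokinesis genes went from 193 CPM at 0 to 1806 at 3 and 8319 at 8. S-phase genes peaked earlier, with 1909 CPM at 0, 9650 at 3 and 5116 at 8. Genes of origin licensing, the loading of the Mcm helicase on DNA, had 2220 CPM at 3 and 947 at 8. Replication histone genes were highest at 6 rule genes, at 42499 CPM, against 2396 at 0. Cells with 8 genes were also the deepest, with a median of 5483 UMIs against 2452 at 3.

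The rule, built on late genes, left cells with S-phase genes among the others. This was read after each cell had been thinned to 1000 UMIs, which removed the shallower cells. At least 3 S-phase genes were found in 78.7% of 686 cycling cells (interval 75.5 to 81.7), and at least 3 of the other G2/M genes in 97.7%. Among 1998 other cells the same shares were 25.9% and 30.3%. S-phase genes without 3 G2/M genes were seen in 1.17% of the cycling cells and in 12.3% of the others (245 cells, interval 10.9 to 13.8). G2/M genes without 3 S-phase genes were seen in 20.1% of the cycling cells and in 16.7% of the others (333 cells, interval 15.1 to 18.4). At least 3 genes of each list were seen in 77.6% of the cycling cells (532 cells) and in 13.7% of the others (273 cells). Cells called other here may thus include cells in the cycle, and the cycling cells may include cells in S phase. These lists were not read in a set of cells known not to divide. Cells with 0 rule genes had 2039 CPM of the G2/M list, so 3 of its genes need not mark a cycling cell. The comparisons below set cells chosen by late genes against all others, which may be a mixture.

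Over all cells, 5.30% of 8280 genes read were at least 2-fold higher in the cycling cells and 8.36% at least 2-fold lower, or 439 and 692 genes. The median gene was lower by a log2 ratio of -0.18, and after the sums were rescaled to a median of 0 the counts were 531 and 442, so that 54.6% and not 38.8% of the calls were higher. The rule used this contrast and its neighbours, so the values are a description. Spindle and cytokinesis genes led, with all 23 at least 2-fold higher and a median log2 ratio of 4.34. Aspm, a spindle pole protein, had 196 against 5.34 CPM (5.20, interval 4.65 to 5.80) and Hmmr, a spindle assembly factor, 341 against 10.1 CPM (5.08). Nusap1, which bundles spindle microtubules, had 563 against 17.3 CPM (5.02), and Plk1, a mitotic kinase, 76.1 against 2.67 CPM (4.83). The largest ratio among genes picked by size was that of Troap, a protein linked to the spindle, at 54.5 against 1.33 CPM (5.35, interval 4.28 to 6.69). Genes outside all lists that stood among the largest included Spag5 (4.39) and Ska1 (4.41), which act at spindle and kinetochore, Melk, a mitotic kinase (4.27), and the DNA glycosylase Neil3 (3.96).

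The 16 kinetochore genes were all called higher, with a median log2 ratio of 3.45, and so were 18 of 18 genes of chromosome structure (condensins, cohesins and chromatin proteins), with a median of 2.96. The lists of S phase and of the steps before it had lower medians. Of the nucleotide supply genes 6 of 7 were called higher (median 1.73), of the S-phase genes 29 of 42 (median 1.28) and of the licensing genes 7 of 16 (median 0.93). None of the genes read in these lists was called lower. Replication histones were higher in 40 of 42 genes (median 2.62). Their copies are nearly identical, and reads may have been split among them in the counting, so single histone genes are uncertain. The exceptions were Hist3h2ba and Hist3h2a, with log2 ratios of -0.50 and -0.36. Foxm1, a transcription factor of the G2/M programme, had a log2 ratio of 3.34.

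Genes of the differentiated cells were lower. All 17 OPC genes read lay below 0, 13 of them at least 2-fold (median -1.39), as did all 9 genes of committed oligodendrocytes and all 5 of myelin at 2-fold. The myelin protein gene Mbp had 19.2 against 226 CPM (-3.56). Neuron genes differed less, with 15 of 17 lower and 3 of them at 2-fold (median -0.40), and the neuronal RNA Meg3 had 91.8 against 598 CPM (-2.70). Erythroid genes were lower in 4 of 4 (median -4.57), choroid plexus genes in 6 of 6 (median -1.95) and microglia genes in 2 of 2. Among the other cells, erythroid genes summed to 5677 CPM in those with neither lineage set and to at most 39 CPM in the other classes. Microglia genes summed to 422 CPM with neither set and 368 CPM with both, and choroid plexus genes to 1659 CPM with neither set and 395 CPM in the glial class. In the glial class 300 CPM of this came from 1 gene. In these sums, fewer cells of a type and less RNA per cell cannot be told apart. The same comparison was made within each lineage, where this limit holds too.

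**Figure D2:**
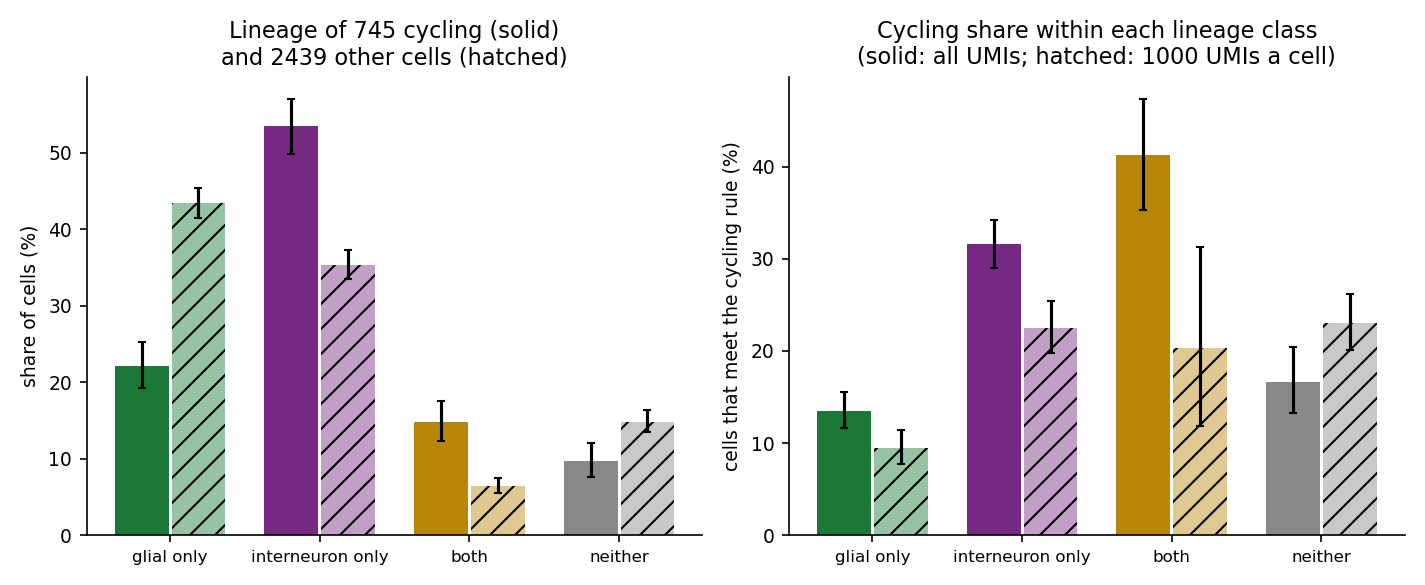
Left, share of each lineage class among the 745 cycling cells (solid) and the 2439 other cells (hatched). Right, share of cells in each class that met the cycling rule, with all UMIs (solid) and after thinning to 1000 UMIs (hatched); bars are exact 95% intervals, and the interneuron class lies above the glial class at both depths.

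Cells with interneuron genes were the most common cycling cells of this Pdgfra reporter library. A cell was put in the glial class on a UMI of Olig1 or Pdgfra, and in the interneuron class on at least 2 of Gad1, Gad2, Dlx1, Dlx2, Dlx5 and Sp9. Of the cycling cells 53.4% carried the interneuron genes only (interval 49.8 to 57.1) and 22.1% the glial genes only (interval 19.2 to 25.3). Both sets were found in 14.8% (12.3 to 17.5) and neither in 9.66% (7.64 to 12). Among the other cells the order was the reverse, with 43.4% glial and 35.3% interneuron. Within the glial class 13.5% of cells cycled (165 of 1223, interval 11.6 to 15.5), and within the interneuron class 31.6% (398 of 1260, interval 29 to 34.2). At 1000 UMIs per cell, with the rules applied again, these shares were 9.45% (7.68 to 11.5) and 22.5% (19.8 to 25.4), so the order was the same and both levels were lower. With the lineage read before thinning they were 9.43% and 24.4%. Median depths were 3946 UMIs in glial and 3451 in interneuron cycling cells.

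As background, cells that should not divide were counted in the same way. Of 51 cells with at least 3 choroid plexus genes 5 met the cycling rule (9.80%, interval 3.26 to 21.4), and 2 after thinning (3.92%, interval 0.478 to 13.5). Their median depth was 4703 UMIs, deeper than either cycling class. Of 6 cells with at least 3 late myelin genes none did (interval up to 45.9%). The thinned glial share of 9.45% lies inside the interval of the 3.92% of the choroid plexus cells. The part of free RNA in either was not tested. Lineage genes were present there as well: Olig1 or Pdgfra was found in 23.5% of the choroid plexus cells, and 2 of the interneuron genes in 5.88%.

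The class with both sets depended on depth. It made up 3.13% of cycling cells after thinning, against 14.8%, and it had the highest median depth of the cycling classes, 4295 UMIs. Its summed OPC genes stood at 1290 CPM, between the 3559 CPM of the glial and the 480 CPM of the interneuron class, and its neuron genes at 5201 CPM lay between 1617 and 7634. Ccnd2 was found in 94.5% of these cells and Ccnd1 in 20.9%. Scrublet, a caller of droplets with 2 cells, marked 5 of 3184 cells (0.157%), which is too few to count as a working call, and no cell was removed. The highest Scrublet scores, from the 95th percentile up, were held by 5.84% of all cells because of ties. They fell on 21.8% of the cycling cells with both sets, on 22.4% of the glial and on 4.77% of the interneuron class. The part of mixed droplets in these classes was not tested. The cells with neither set were the shallowest cycling cells, with a median of 1386.5 UMIs, and after thinning they made up 36.1% of cycling cells.

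**Figure D3:**
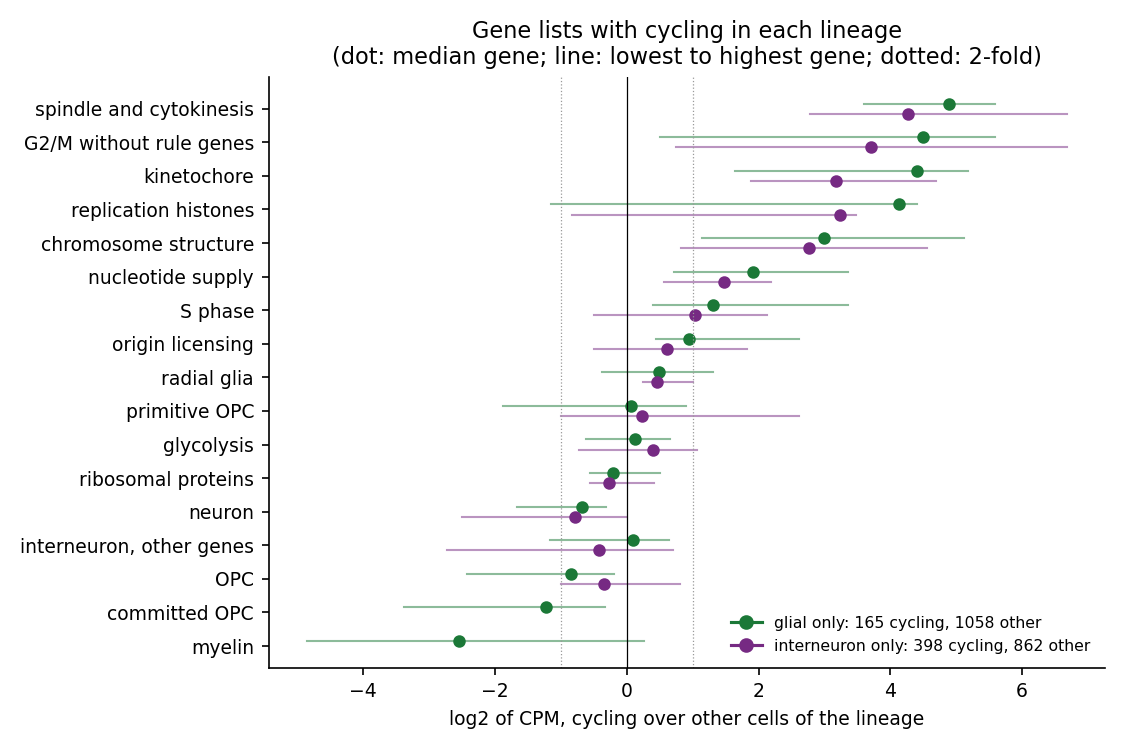
Log2 ratio of CPM between cycling and other cells of one lineage, for the genes of each list with at least 100 UMIs: the dot is the median gene and the line runs from the lowest to the highest (dotted lines mark 2-fold). The medians of the spindle, G2/M and kinetochore lists are 4.90, 4.49 and 4.40 in the glial and 4.26, 3.71 and 3.18 in the interneuron lineage; those of OPC, committed OPC and myelin genes lie below 0 in the glial lineage, and that of neuron genes below 0 in both.

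In the glial lineage 165 cycling cells were set against 1058 others. Of 5322 genes read, 4.57% (243) were at least 2-fold higher and 4.81% (256) at least 2-fold lower. The median gene stood at -0.11, and rescaling to 0 gave 286 and 161 genes, with 64% and not 48.7% of calls higher. Mitotic genes led here too: 16 of 16 spindle genes were called higher (median log2 ratio 4.90), 13 of 13 kinetochore genes (4.40) and 38 of 40 G2/M genes (4.49). Ccnb2, a mitotic cyclin, had 272 against 5.71 CPM (5.58, interval 4.82 to 6.44) and Ccna2, the cyclin of S and G2, 295 against 10.3 CPM (4.84). Kif11, the motor that parts the spindle poles, had a log2 ratio of 5.16, and Nuf2, which ties kinetochores to microtubules, 5.17. Esco2, which links sister chromatids in S phase, had 160 against 3.43 CPM (5.54). In S phase 20 of 28 genes were called higher (median 1.31). The ribonucleotide reductase subunit Rrm2 had 329 against 32 CPM (3.36, interval 3.00 to 3.74), the replication clamp Pcna 489 against 142 CPM (1.78) and the helicase subunit Mcm3 103 against 28.2 CPM (1.87). Outside the lists, Lmnb1 of the nuclear lamina (2.13) and the galectin Lgals1 (2.57) were among the largest.

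The cycling glial cells, summed as a group, carried less RNA of later oligodendrocytes. The other glial cells may hold several stages of the lineage. Fewer cells of a later stage and less RNA per cell cannot be told apart. Among 9 genes of committed oligodendrocytes all lay below 0 and 5 were called lower (median -1.23), and 3 of 4 myelin genes were called lower. Mbp had 20.1 CPM in cycling and 275 CPM in other glial cells (-3.77, interval -4.62 to -3.04). Enpp6, a gene of newly formed oligodendrocytes, had no UMI in the cycling glial cells against 41.9 CPM, at least 10.4-fold lower at a floor of 3 UMIs over the group. Bcas1, an early oligodendrocyte gene, had 109 against 467 CPM (-2.10, interval -2.45 to -1.78) and Bmp4, a secreted growth factor of committed precursors, 4.03 against 40.4 CPM (-3.33). OPC genes differed less, with all 17 below 0 and 4 of them called (median -0.84). Sox10, a factor of the whole lineage, had 88.6 against 191 CPM (-1.11, interval -1.50 to -0.73), while Olig2 had 523 against 608 CPM (-0.22, interval -0.38 to -0.06). The Notch ligands Dll1 and Dll3 had 20.1 against 73.9 CPM (-1.88) and 106 against 235 CPM (-1.15). The choroid plexus transcript Ttr, with 275 against 7866 CPM (-4.84), turned to 0.94 on thinning. Choroid plexus genes summed to 114 CPM in cycling and 395 CPM in other glial cells, and their part in the value of Ttr was not tested.

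Of 11 radial glia genes 8 lay above 0 and 1 was called higher in the cycling glial cells (median 0.49). This was Nes, an intermediate filament of neural stem cells, with 279 against 113 CPM (1.31, interval 1.04 to 1.57), while Sox9, a factor of glial progenitors, stood at -0.37. Of 8 Notch pathway genes 5 lay above 0, none called higher, and 2 were called lower, the ligands Dll1 and Dll3 given above (median 0.10). Egfr, the receptor of epidermal growth factor, had 53.7 against 29.7 CPM (0.85, interval 0.27 to 1.42). The Notch targets Hes1 and Hes5 had 176 against 93.0 CPM (0.92) and 584 against 373 CPM (0.65). Id3, an inhibitor of differentiation factors, had 254 against 123 CPM (1.04). In the glial lineage of the hGFAP-GFP library, described last, the log2 ratios were 0.70 for Nes, 0.15 for Hes1, -0.41 for Hes5 and -0.98 for Id3. Of the 10 genes of the primitive OPC, an early glial progenitor, 6 lay above and 4 below 0, with none called higher and 2 lower (median 0.07). Immediate early genes were all below 0 in 5 of 5, with 2 called lower, among them Fos at 209 against 423 CPM (-1.02). Neuron genes were below 0 in 16 of 16, with 4 called (median -0.68).

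In the interneuron lineage 398 cycling cells were set against 862 others. Of 4556 genes read, 6.47% (295) were at least 2-fold higher and 4.32% (197) at least 2-fold lower. The median gene stood at -0.10, and rescaling gave 339 and 141 genes, with 70.6% and not 60.0% of calls higher. All 22 spindle genes (median log2 ratio 4.26), all 15 kinetochore genes (3.18) and 46 of 47 G2/M genes (3.71) were called higher. Hmmr had 361 against 9.43 CPM (5.26, interval 4.52 to 6.10), Ccna2 286 against 17 CPM (4.08) and Ccnb2 176 against 10.1 CPM (4.13). Dlgap5, a spindle microtubule protein, had 129 against 1.26 CPM, from 2 UMIs in the other cells (6.68, interval 4.80 to 9.73). S-phase genes were called higher in 19 of 37 (median 1.04) and licensing genes in 3 of 13 (median 0.61). Rrm2 had 523 against 128 CPM (2.03), Pcna 662 against 323 CPM (1.04) and the thymidylate synthase Tyms 186 against 58.5 CPM (1.67). Mcm3 had 79.5 against 67.9 CPM, with a log2 ratio of 0.23 whose interval (-0.16 to 0.62) spans 0.

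The other interneuron-lineage cells had many S-phase UMIs of their own, 3842 CPM summed over the list against 1922 CPM in other glial cells. After thinning, 33.4% of them had at least 3 S-phase genes, against 19.2% of the other glial cells, and 15.8% had these without 3 G2/M genes. The cells that the interneuron-lineage ratios are set against thus had the higher S-phase level. In the cycling cells the summed S-phase level was 7823 CPM in the interneuron and 5570 CPM in the glial class.

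Neuronal genes were lower in the cycling interneuron-lineage cells, summed as a group. Here too, fewer cells of a later stage and less RNA per cell cannot be told apart. All 17 neuron genes lay below 0, 5 of them called (median -0.79), although Elavl4, an RNA-binding protein at -0.01, would lie above 0 after the rescaling. Stmn2, a microtubule protein of growing neurites, had 1566 against 3139 CPM (-1.0, interval -1.08 to -0.93), and Dcx, a marker of migrating neurons, 297 against 587 CPM (-0.99). Mapt, the axonal protein tau, had 26.9 against 152 CPM (-2.50), and Meg3 110 against 1086 CPM (-3.30, interval -3.54 to -3.07). Among the 12 lowest genes were the sodium channel Scn3a at 10.1 against 81.1 CPM (-3.01) and the neuronal transcription factor Myt1l at 22.9 against 112 CPM (-2.29). Htr3a, the ionotropic serotonin receptor of a class of cortical interneurons, had 15.5 against 103 CPM (-2.73, interval -3.42 to -2.09). Of 11 interneuron genes outside the lineage rule 9 lay below 0 and 5 were called lower. The antisense RNA Dlx6os1 had 601 against 1445 CPM (-1.27), and the GABA transporter of vesicles, Slc32a1, 25.6 against 62.3 CPM (-1.28). Dlx6os1 overlaps the Dlx6 locus, and the strand of the counting is not given in the sources used here.

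Among the genes of the lineage rule itself, given as a description, the early factors differed little and the enzyme genes more. Dlx2 had 605 CPM in cycling and 562 CPM in other interneuron-lineage cells, and Dlx1 1146 against 1255 CPM. Gad1 had 110 against 280 CPM (-1.35) and Gad2 444 against 708 CPM (-0.67). Gsx2, a ventral forebrain progenitor factor, had 51.9 against 22 CPM (1.24, interval 0.64 to 1.86). Sox9 had 113 against 56 CPM (1.01), and in the hGFAP-GFP library its log2 ratio was -0.12 (interval -0.60 to 0.36). Hes5 had 239 against 125 CPM (0.93). All 8 radial glia genes read lay above 0, and 1 was called (median 0.45).

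The D-type cyclins, which act at the start of the cycle, differed between the lineages in opposite directions. Ccnd1, a D-type cyclin, had 333 CPM in cycling glial and 28.3 CPM in cycling interneuron-lineage cells (log2 ratio 3.56, interval 3.08 to 4.06), and was found in 48.5% and 6.03% of cells. Ccnd2, another D-type cyclin, was arranged the other way, with 593 against 3642 CPM (-2.62, interval -2.76 to -2.48) and 62.4% against 98.0% of cells. Both differences were present in the other cells of the lineages, with 404 against 27 CPM for Ccnd1 and 405 against 3267 CPM for Ccnd2. Within a lineage the D-type cyclins differed little with cycling: the log2 ratio of Ccnd1 in glial cells was -0.28, and that of Ccnd2 was 0.55 in glial and 0.16 in interneuron-lineage cells. The CDK inhibitor Cdkn1b (p27) had 195 CPM in cycling glial and 447 CPM in cycling interneuron-lineage cells (-1.20), and in both lineages it was slightly higher in cycling than in other cells (0.40 and 0.36). Cdkn2d, an inhibitor of the kinases that pair with D-type cyclins, had 84.5 against 20.6 CPM in glial cells (2.04) and 153 against 29.6 CPM in interneuron-lineage cells (2.37). Cdkn2c, of the same family, had 110 against 17.6 CPM in interneuron-lineage cells (2.64) and did not reach 100 UMIs in the glial comparison. Of the 3 CDK inhibitor genes read in the glial lineage 2 lay above 0 and 1 below, at -0.98. All 4 read in the interneuron lineage lay above 0.

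**Figure D4:**
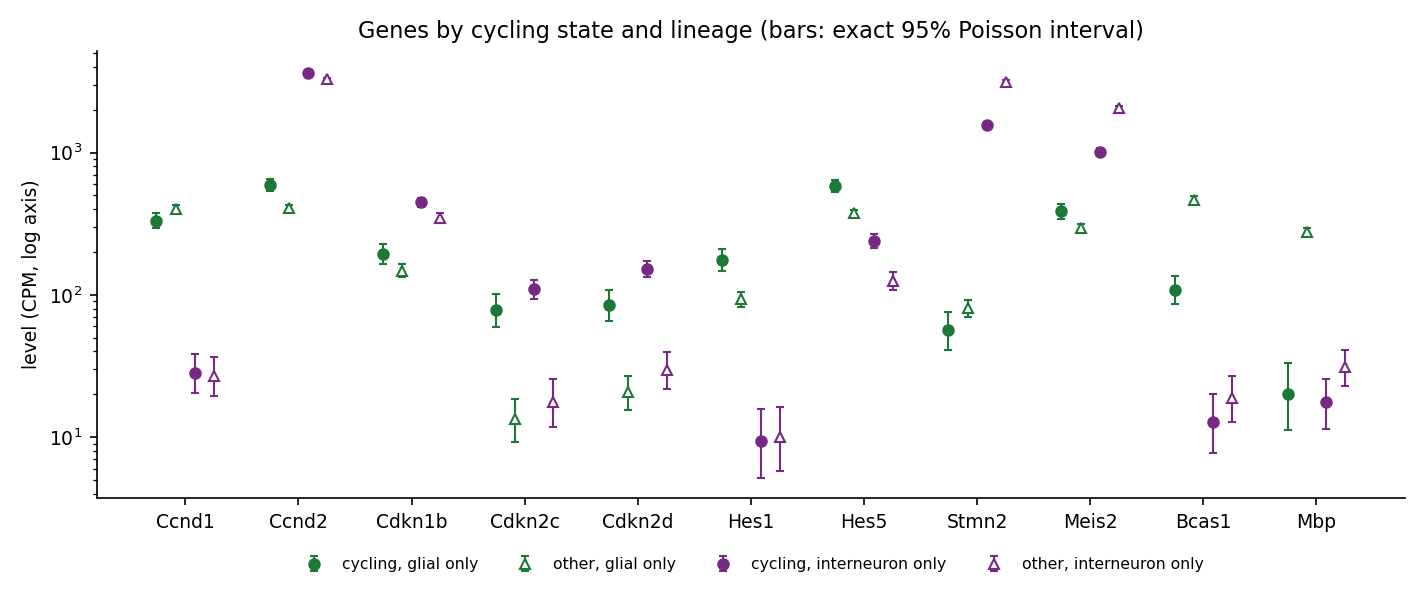
Level (CPM, log axis) of cell cycle regulators, Notch targets and differentiation genes in cycling (filled circles) and other cells (open triangles) of the glial (green) and interneuron (purple) classes; bars are exact 95% Poisson intervals. The levels of Ccnd1 and Ccnd2 differ between the lineages in either state, and that of Cdkn2d between cycling and other cells of both lineages. The level of Cdkn2c differs with cycling in the interneuron lineage, and the gene was under 100 UMIs in the glial comparison.

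Set directly against each other, 6.77% of 3621 genes were at least 2-fold higher in the glial cycling cells (245) and 6.43% at least 2-fold lower (233), with a median gene of 0.00. Cell cycle lists held few of them: none of 23 spindle genes (median log2 ratio -0.28), none of 16 kinetochore genes (-0.11) and 1 of 50 G2/M genes (-0.24) reached 2-fold in either direction. Ccna2 had 295 and 286 CPM, with a log2 ratio of 0.04 (interval -0.20 to 0.28). S-phase genes leaned to the interneuron side, with 29 of 35 below 0 and 2 called lower (median -0.33), as did chromosome structure genes (16 of 17 below 0, 1 called, median -0.57) and replication histones (22 of 25, 3 called, median -0.70). Summed, replication histones had 22702 CPM in glial and 37398 CPM in interneuron-lineage cycling cells. After thinning, at least 3 S-phase genes were found in 71.4% of the glial (interval 63.6 to 78.4) and 79.5% of the interneuron class (75.0 to 83.4), intervals that overlap.

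Lineage genes made up most of the named differences. The genes used to split the cells (Olig1, Pdgfra and the 6 interneuron genes) differ by construction. Of 9 OPC genes read 7 were called higher in the glial class (median 2.60), of 11 radial glia genes 7 (median 2.96) and of 3 astrocyte genes 3 (median 2.87). Fabp7, which binds fatty acids in radial glia and OPCs, had 5140 against 259 CPM (4.31), and Olig2 523 against 22.2 CPM (4.56). Cntn1, an adhesion molecule, had 436 against 8.09 CPM (5.75), Serpine2, a protease inhibitor, 808 against 24.9 CPM (5.02), and Id3 254 against 3.37 CPM (6.23). The Notch targets were higher in the glial class, Hes1 at 176 against 9.43 CPM (4.22, interval 3.42 to 5.13) and Hes5 at 584 against 239 CPM (1.29). Hes1 was found in 24.2% of glial and 2.26% of interneuron-lineage cycling cells. Glycolysis genes were higher in 7 of 8, with 4 called (median 1.08), among them Ldha, which makes lactate, at 212 against 74.1 CPM (1.52).

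On the interneuron side, 11 of 15 neuron genes were at least 2-fold lower in the glial cycling cells (median -2.13), and 6 of 7 interneuron genes outside the rule (median -3.82). Sp8, a zinc finger factor of interneuron progenitors, had 1 UMI in the glial class and 199 CPM in the interneuron class (-7.22, interval -12.52 to -4.73). Dlx6os1 had 16.1 against 601 CPM (-5.22) and Stmn2 56.4 against 1566 CPM (-4.80). St18, a zinc finger factor, had no UMI in the glial class against 96.4 CPM, at least 23.9-fold lower at the floor of 3 UMIs. Pax6, a factor shared by radial glia and olfactory interneuron precursors, went against the radial glia list, with 53.7 against 375 CPM (-2.80). Mapt went against the neuron list, with 102 against 26.9 CPM (1.92, interval 1.35 to 2.51). Sox2 and Vim, genes of progenitors at large, had intervals that span 0 (-0.14 and 0.19).

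**Figure D5:**
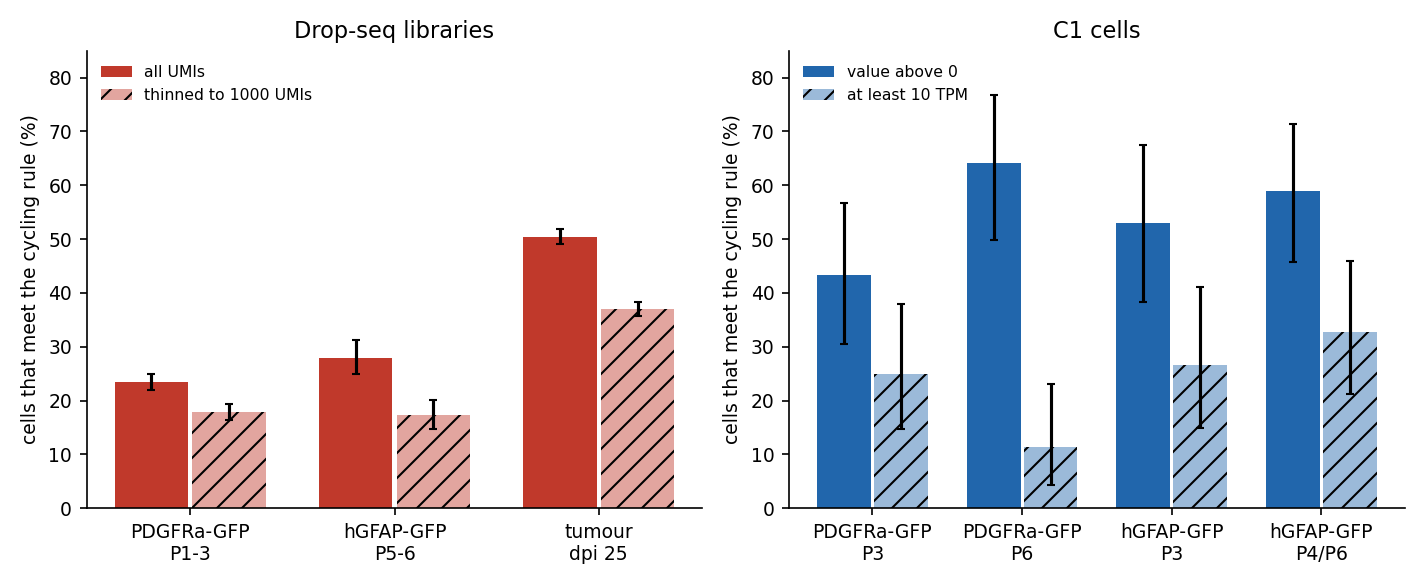
Share of cells that met the same rule in the Drop-seq libraries (left, with all UMIs and thinned to 1000 UMIs) and in the C1 sets (right, at values above 0 and at 10 TPM or more); bars are exact 95% intervals. At 1000 UMIs the 2 cortex libraries stand at 17.8% and 17.3% and the tumour at 37.0%.

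The same rule was applied to the other tables, which were normalized separately, so their values stand side by side without a test. In the hGFAP-GFP library 228 of 815 cells met it (28%, interval 24.9 to 31.2), and 17.3% after thinning (14.8 to 20.1) against 17.8% (16.4 to 19.3) in the PDGFRa-GFP library. Its median depth was 4167 UMIs. There too interneuron-lineage cycling cells outnumbered glial ones, with 101 (44.3%) against 54 (23.7%), and the thinned cycling shares were 27.6% and 8.47%. In the tumour library 2501 of 4955 cells met the rule (50.5%, 37.0% after thinning). Of these 2219 (88.7%) were of the glial class and 0 had 2 of the interneuron genes (interval up to 0.147%). Of all 4955 cells, 4128 were of the glial class and 827 had neither set, so no cell of this library had 2 of these genes. A gene absent from the tumour values counts as not found, so this 0 does not limit the share of any lineage. The median depth of the library was 2063 UMIs. Strain, age, sort and depth differ between these libraries and cannot be told apart.

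The lineage contrast in the D-type cyclins was present in the hGFAP-GFP cycling cells as well. Ccnd1 had 204 CPM in the glial and 20.1 CPM in the interneuron class, and Ccnd2 923 and 5298 CPM. Tumour cycling cells of the glial class had 2657 CPM of Ccnd1 and 342 CPM of Ccnd2. Within the glial lineage of the hGFAP-GFP library the median log2 ratio with cycling was 4.81 for spindle genes, 1.67 for S-phase genes, -1.07 for OPC genes and -3.94 for myelin genes. In the tumour the medians were 3.15 for spindle genes and 0.35 for S-phase genes.

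In the C1 cells, where any value above 0 counts and depth is unknown, the share depended on the threshold. Of the PDGFRa-GFP cells 26 of 60 met the rule at P3 (43.3%) and 34 of 53 at P6 (64.2%), and at 10 TPM or more 15 (25.0%) and 6 (11.3%). The order of the ages thus turned with the threshold. Of the 26 cells at P3, 15 carried only interneuron genes and 4 only glial genes, and of the 34 at P6 4 and 21. Among the cells that did not meet the rule these counts were 17 and 13 at P3, and 2 and 14 at P6. The sets thus differed in lineage between the ages outside the chosen cells as well. Of the genes outside the rule, the summed G2/M genes at P3 had a median of 4115 TPM in the chosen and 838 TPM in the other cells, and spindle genes 606 against 6.06 TPM, with ranges that overlap. At P6 the medians were 1399 against 883 TPM and 13.7 against 6.92 TPM.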

How the data were processed

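The Drop-seq tables hold a signal that the authors had brought to 10000 in every cell. The submitters' processing notes name STAR for their alignment. All values of a cell were whole multiples of a step (100% within 0.1), so counts were recovered by division. The C1 tables deposited by the authors are in TPM, and RSEM is named for them. The authors deposited one list of ATAC peaks over pooled samples, with a fold ratio and -log10 p-values and q-values per peak, of which only the intervals were used. The same notes name CASAVA, Bowtie2, HOMER, MACS2 2.12 and 2 builds, mm10 and rn5. Peak intervals were compared with GRCm38.p6, the RefSeq name of mm10.

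UMIs were summed over the cells of a group, and a count of 0 was set to 3 UMIs for bounds. Shares have Clopper-Pearson, levels Poisson and ratios exact conditional 95% intervals (Python 3.11.15, numpy 2.4.6, pandas 2.3.3, scipy 1.17.1, scanpy 1.11.5, matplotlib 3.10.9), and the code was tested on simulated data. Thinning drew 1000 UMIs at random from every cell with at least that number (seed 20). Doublets were scored with Scrublet and not removed. Named genes are, in each comparison, the 12 largest and 12 smallest ratios at 100 UMIs and 50 CPM in the higher group, and any gene of the lists. Left out were the rule genes, predicted genes, haemoglobins, ribosomal protein genes, mitochondrial genes and sex-linked RNAs. For cycling against all other cells this was repeated without the cell cycle lists. Some genes that meet this rule are not reported here. Members, lists and tests were chosen with earlier results of these data known.

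The titles were followed where labels disagree: the strain given for the C1 PDGFRa-GFP cells is hGFAP-gfp, and ATAC samples have a stage and genotype other than those in the title. Alternatives changed the depth, the rule, the lineage rule, the scaling, the gene minimum, the averaging and the comparison cells.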

Additional observations from a re-analysis of the deposited data

Results flagged for a closer look

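Among 4079 genes read in both lineages, 5 stood higher in the cycling cells of one lineage and lower in those of the other, with both intervals clear of 0 and at least 2-fold in one of them. The difference itself was not tested, since each lineage comes from the same single library. Meis2, a homeobox factor of striatal and olfactory interneurons, had log2 ratios of 0.40 in glial and -1.01 in interneuron-lineage cells, a difference of 1.41 (387 against 293 CPM, and 1016 against 2043 CPM). Tshz1, a zinc finger factor of olfactory interneurons, differed by 1.96 (0.64 and -1.32). Egr1, an immediate early gene, differed by -1.32 (735 against 894 CPM in glial and 470 against 229 CPM in interneuron-lineage cells). Sox9, a factor of glial progenitors, differed by -1.38 (-0.37 and 1.01). Klhl13, an adaptor of a ubiquitin ligase that acts in mitosis, differed by -1.75 (-0.51 and 1.24). In the hGFAP-GFP library, glial and interneuron-lineage log2 ratios were 0.43 and -1.20 for Meis2, 0.37 and -1.74 for Tshz1, -0.03 and 1.17 for Egr1, and -0.25 and -0.12 for Sox9. The intervals of Tshz1 and Egr1 in the glial lineage and of Sox9 in both lineages span 0 there, and Klhl13 was under 100 UMIs in both.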

How the results depend on the processing

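Thinning to 1000 UMIs gave 17.8% cycling cells, of which 19.2% glial, 41.5% interneuron and 3.13% both, and cycling shares of 9.45% in the glial and 22.5% in the interneuron lineage. With 2 rule genes the shares in all, glial and interneuron cells were 29.6%, 18.9% and 37.9%, and with 4 rule genes 19.5%, 10.7% and 27.8%. A stricter lineage rule gave 4.30% of cycling cells with both sets and a cycling share of 35.8% in the interneuron lineage. Without the highest Scrublet scores (5.84% of cells), an alternative chosen after seeing the data, 21.9% of cells cycled, 57.8% of them interneuron only, and 11.2% of the glial lineage cycled. Rescaling to a median gene of 0 gave 442 lower genes over all cells and 161 in the glial lineage. After thinning, with fewer genes read, 197 genes were higher and 283 lower over all cells, 68 and 122 in the glial lineage, 87 and 48 in the interneuron lineage, and 13 and 44 between the lineages. At a minimum of 20 UMIs 1792 genes were lower over all cells, 619 were higher and 1199 lower in the glial lineage, 648 and 840 in the interneuron lineage, and 1181 and 738 between the lineages. The rule gave 17.3% in the hGFAP-GFP and 37.0% in the tumour library after thinning. At 10 TPM it gave 25.0% and 11.3% in the PDGFRa-GFP C1 cells at P3 and P6, and 26.5% and 32.8% in the hGFAP-GFP C1 cells of P3 and of P4 to P6. Of 603 values of named genes under an alternative 507 stayed within the counting interval of the reported value. Another 95 left it with no change of sign in a value of at least 2-fold. This count does not separate moves toward 0 from moves away from it. The remaining 1, that of Ttr in the glial lineage, turned to 0.94 after thinning, and the cause was not tested. Of 539 medians of lists 428 stayed between the median lower and the median upper interval end of their single genes, which is not an error of the median itself. No replicate could be left out, since each group is a single library. No paired analysis was possible because no group has a replicate in the droplet libraries.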

Other observations

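Housekeeping programmes differed little between cycling and other cells. Of 101 ribosomal protein genes read in the glial lineage 90 lay below 0 and none was called (median log2 ratio -0.20), and in the interneuron lineage 93 of 101 did (median -0.26), beside medians of all genes of -0.11 and -0.10. Cholesterol synthesis genes were also never called, with medians of 0.03 in the glial and -0.19 in the interneuron lineage. Glycolysis genes had medians of 0.13 and 0.40, with 1 of 8 called higher in the interneuron lineage. Genes linked to p53 and DNA damage had a median of 0.71 over all cells, with 5 of 10 called higher, and of 0.12 in the glial and 0.06 in the interneuron lineage, where 0 of 3 and 2 of 5 genes were called higher.

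The cycling cells with neither lineage set had microglia genes summing to 508 CPM, against 0 CPM in the glial and 2.70 CPM in the interneuron class, astrocyte genes at 1311 CPM against 961 and 97.0 CPM, and choroid plexus genes at 803 CPM against 114 and 12.1 CPM. Of the 114 CPM of choroid plexus genes in the glial class, 109 CPM came from 1 gene. The OPC genes of the cells with neither set stood at 1028 CPM and their neuron genes at 3445 CPM. These are sums over 72 shallow cells, so a few cells can carry them, and free RNA, missed lineage genes and other cell types cannot be told apart.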
